A study of Mus musculus with 18 samples.

Results

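Guanylate-binding proteins (GBPs) are large GTPases of the dynamin superfamily and classical targets of interferon signalling. They assemble on cytosolic bacteria and on the vacuoles of intracellular pathogens, where they damage these membranes, expose microbial ligands and help to activate inflammasomes. IFN-γ acts through its receptor and Janus kinases, and *Irf1* encodes a transcription factor that carries the signal on to GBP genes. *Gbp2*, *Gbp2b* and *Gbp5* encode members that carry a prenyl lipid at the C-terminus, which anchors them to membranes. The 9 mouse genes *Gbp2*, *Gbp2b*, *Gbp3*, *Gbp4*, *Gbp5*, *Gbp6*, *Gbp7*, *Gbp8* and *Gbp9* were chosen by name through their Ensembl identifiers. They were 9 of 55029 genes listed for 12 libraries and of 54232 genes listed for a further 6.

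The libraries came from mouse eosinophils, granulocytes that carry receptors for IFN-γ and IL-4, and were made to compare Type 1 with Type 2 activation. Cells were washed from the peritoneal cavity of C57BL/6 mice carrying an *Il5* transgene, which every group shares, and T and B cells were depleted with beads against Thy1.2 and B220. The 3 libraries of each stimulated group came from cells cultured for 18 h with heat-inactivated *E. coli*, with IFN-γ at 50 ng/ml, with IFN-γ + *E. coli*, or with IL-4 at 100 ng/ml. The 6 unstimulated libraries carried the letters a to f, and their culture time was not given. Libraries a to c shared a table layout with the *E. coli*, IFN-γ and IFN-γ + *E. coli* libraries, and libraries d to f shared another with the IL-4 libraries, so a stimulus was set against unstimulated libraries from the same layout, with all 6 pooled as an alternative, and the ages of the mice were not given. The labels name CEL-Seq on one instrument and RNA-seq on another without saying which library was made how.

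Counts on genes totalled 1523808 to 2734041 per library in the layout of 12 libraries and 3625036 to 6482289 in the layout of 6. By group, the median total was 2211861 for unstimulated libraries a to c, 2318235 with *E. coli*, 1859508 with IFN-γ, 1719468 with IFN-γ + *E. coli*, 5294968 for unstimulated libraries d to f and 5121421 with IL-4. Levels are given as CPM, the count of a gene scaled by the size of its library, after trimmed-mean (TMM) normalization. The floor for calling a transcript detected was 3 counts in a library, which stood for 1.00 to 2.19 CPM in the first layout and 0.497 to 0.833 CPM in the second. Such floors cover counting error only. The study calls its replicates biological, but the labels do not say whether they came from separate mice or cultures, and p-values measure the spread between these libraries. In each of the 12 libraries the highest gene count was 4089 to 4095, just under 4096, whereas it was 87377 to 191131 in the other 6. With IFN-γ *Gbp2* reached 3706, 3690 and 3644 counts, close to that value. Whether molecular identifiers were collapsed in these libraries was not given in the sources used here, and levels corrected for the ceiling, given beside *Gbp2* and *Gbp7*, assume 4096 identifiers, an assumption that was not tested.

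The eosinophil label was checked with 10 marker genes, among them *Siglecf*, *Ccr3*, *Epx* and *Prg2*, and none was at 0 in all libraries of a group. *Epx*, which encodes eosinophil peroxidase, was at the limit of detection in the first layout, with 9 counts over unstimulated libraries a to c, 3 over the *E. coli* libraries, 1 over the IFN-γ libraries and 2 over the IFN-γ + *E. coli* libraries. Their summed level was 5156 to 6911 CPM in unstimulated libraries a to c and 7351 to 8496 CPM in libraries d to f, with *Alox15* the most abundant in both. Macrophage markers were also present, with a summed level of 2769, 2765 and 2795 CPM for 11 genes in libraries a to c and 4177, 4698 and 5298 CPM in libraries d to f. *Adgre1*, which eosinophils also express, led that list in the first layout and *Lyz2* in the second. The 6 B cell markers, led by *Ighm*, summed to 217, 196 and 117 CPM in libraries a to c and to 25.0, 23.7 and 43.4 CPM in libraries d to f. In unstimulated libraries a to c, neutrophil markers summed to 11.9 to 19.4 CPM, mast cell markers to 7.43 to 9.69 CPM, dendritic cell markers to 7.02 to 9.69 CPM and T and NK cell markers to 4.54 to 14.9 CPM. *Klrb1c* was at 0 in all 18 libraries, and mesothelial markers reached at most 1.70 CPM in any library. In such bulk samples, fewer cells of a type and less RNA per cell cannot be told apart. Unstimulated library e stood apart from its group. Its counts differed from those of d and f by a chi-square per gene of 23.7 and 22.0, against 7.86 between d and f and 3.72 to 5.25 among the IL-4 libraries, so the counts of calls with IL-4 are given with and without library e. In the first layout, *E. coli* library 3 differed from 1 and 2 by 3.76 and 4.601, against 1.64 between those, and IFN-γ + *E. coli* library 3 differed from 1 and 2 by 6.04 and 5.02, against 2.66. Unstimulated library b differed from a and c by 4.58 and 4.505, against 2.49. No pair of libraries matched within sampling noise.

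The 9 genes lie in 2 clusters of the GRCm38 genome. On chromosome 3, on the plus strand, the annotation places *Gbp5* (ENSMUSG00000105504) at 142493978 to 142522344, *Gbp7* (ENSMUSG00000040253) at 142530342 to 142550149 and *Gbp3* (ENSMUSG00000028268) at 142560026 to 142573209. They are followed by *Gbp2b* (ENSMUSG00000040264) at 142594847 to 142619179 and *Gbp2* (ENSMUSG00000028270) at 142620602 to 142638008. On chromosome 5, on the minus strand, *Gbp8* (ENSMUSG00000034438) spans 105014150 to 105139540 and *Gbp9* (ENSMUSG00000029298) 105077630 to 105139539. *Gbp4* (ENSMUSG00000079363) lies at 105115767 to 105139586, and *Gbp6* (ENSMUSG00000104713) at 105270702 to 105293698. Copies limited how well reads could be assigned. *Gbp6* shared 1726 exon bases (29.0%) with the gene model *Gm43302*, and 90.2% of the 50-base stretches of its transcript also occurred in other genes, *Gbp10* among them, so its counts are uncertain. *Gbp4*, *Gbp8* and *Gbp9* shared an exon of about 60 bases, and *Gbp7* shared 637 exon bases (11.3%) with *Gm43802* on the same strand. Of the other GBP genes of the annotation, *Gbp10* had 1 count in 1 IFN-γ library and in 1 IFN-γ + *E. coli* library and 0 counts elsewhere, *Gm43302* had 0 counts in all 18 libraries, and *Gbp11*, a polymorphic pseudogene, reached at most 7.19 CPM. Other genes held 100% of the 50-base stretches of *Gm43302* and 82.5% of those of *Gbp10*. Only uniquely mapped reads were counted, so the counts of *Gbp10* and *Gm43302* do not show that these genes were silent.

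**Figure D1:**
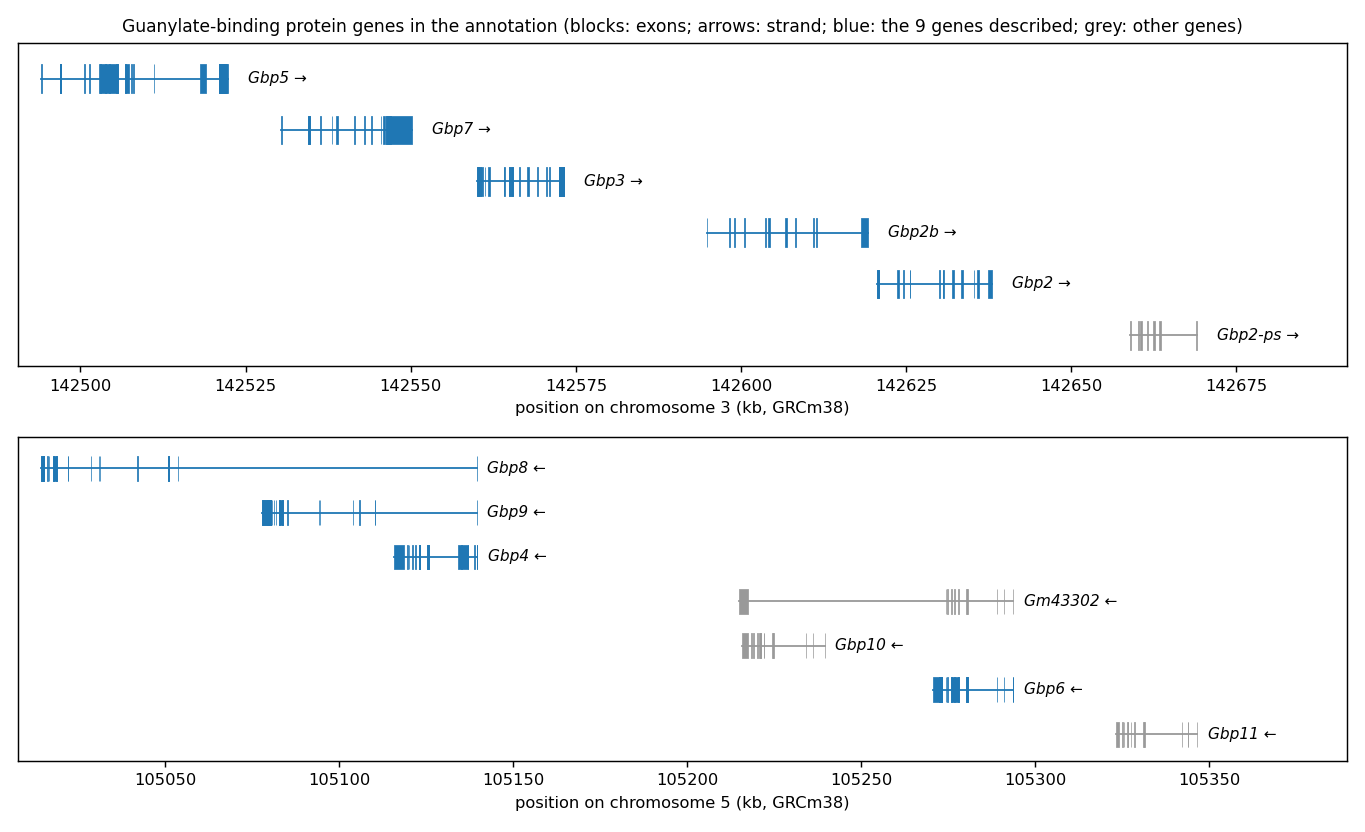
Map of the guanylate-binding protein genes on chromosome 3 (top) and chromosome 5 (bottom), with position in kb of GRCm38 on the horizontal axis, exons as blocks and strand as arrows. The 5 genes on chromosome 3 follow one another on the plus strand, whereas *Gbp8*, *Gbp9* and *Gbp4* on chromosome 5 overlap at their first exon on the minus strand.

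Resting eosinophils already held GBP transcripts, and *Gbp2* and *Gbp7* made up most of them. The summed level of the 9 genes was 1408, 1334 and 1419 CPM in unstimulated libraries a to c. *Gbp7*, whose product takes part in the attack on the *Toxoplasma* vacuole, gave 45.4% to 51.6% of that sum, and *Gbp2* gave 26.3% to 30.4%. Levels between genes were set per kb of transcript, although CEL-Seq tags transcript 3′ ends, so that counts need not scale with length. In libraries a to c the order was *Gbp2* (156 CPM per kb), *Gbp7* (119), *Gbp3* (38.8), *Gbp9* (23.6), *Gbp4* (14.2), *Gbp8* (10.6), *Gbp5* (6.12), *Gbp6* (2.60) and *Gbp2b* (0.729), and the libraries of no neighbours in that order overlapped. Libraries d to f gave *Gbp2* (288 CPM per kb), *Gbp7* (96.0), *Gbp3* (49.6) and *Gbp4* (15.5), none overlapping its neighbour. Below these, *Gbp9* (7.72), *Gbp5* (6.65), *Gbp8* (4.36) and *Gbp2b* (2.34) overlapped their neighbours in that order, and *Gbp6* (1.00) was lowest. *Gbp2b* was at the limit of detection in the first layout, with 1 to 8 counts per library in libraries a to c. All 9 genes passed the filter on low counts, but *Gbp2b* did so in the first layout only through the IFN-γ libraries (17 to 20 counts), so counts are also given over the other 8.

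**Figure D2:**
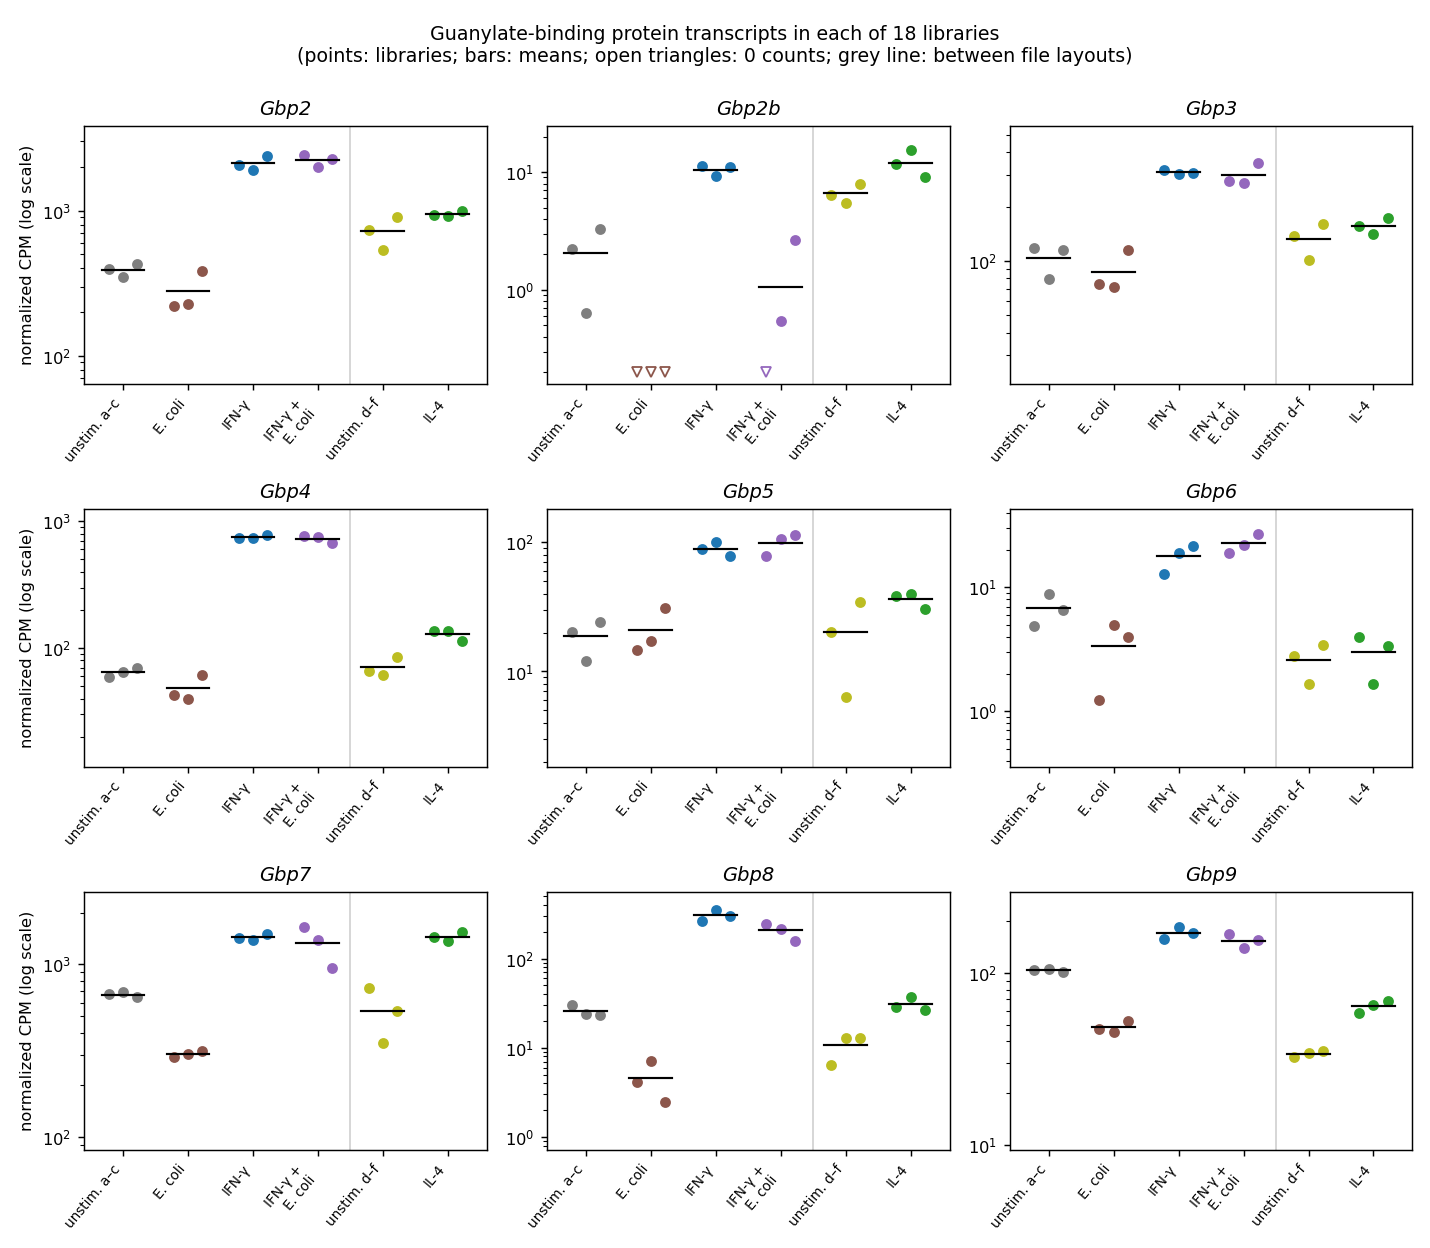
Level of each of the 9 transcripts in each of the 18 libraries, in normalized CPM on a log axis, with 1 point per library, bars at group means (n = 3) and open triangles at 0 counts. For 8 of the 8 genes other than *Gbp2b* the IFN-γ libraries sit above the unstimulated libraries a to c. *Gbp2b*, which passed the filter on low counts in that layout only through the IFN-γ libraries, is at 0 in the *E. coli* libraries.

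IFN-γ raised the transcripts of the 8 members other than *Gbp2b*, which passed the filter on low counts through these libraries alone, and the sum of the 9 reached 5073, 4994 and 5553 CPM. *Gbp4* stood at 731.0, 738 and 785 CPM with IFN-γ and at 59.2, 64.6 and 69.8 CPM in unstimulated libraries a to c. *Gbp8* stood at 261, 354 and 301 CPM with IFN-γ and at 30.6, 24.1 and 23.5 CPM without a stimulus. *Gbp2*, whose prenylated product coats pathogen vacuoles, stood at 2074, 1891 and 2383 CPM with IFN-γ and at 395, 351 and 431 CPM without a stimulus. For each of these 3 genes every IFN-γ library was above every unstimulated one, by a wide margin. *Gbp7* stood at 1418, 1392 and 1495 CPM with IFN-γ and at 674, 688 and 644 CPM without a stimulus. *Gbp5*, whose product promotes inflammasome assembly, stood at 88.4, 101 and 77.8 CPM with IFN-γ and at 20.1, 12.04 and 24.0 CPM without a stimulus. *Gbp9* stood at 158, 186 and 171 CPM with IFN-γ and at 104, 105 and 101 CPM without a stimulus. The groups did not overlap for these genes either, and over the 8 members other than *Gbp2b* they did not overlap for 8, against 22.2% of the genes tested with every IFN-γ library above every unstimulated one. *Gbp9* showed the smallest fitted rise. *Gbp3* ranged from 304 to 318 CPM with IFN-γ against 79.2 to 118 CPM, *Gbp6* from 12.9 to 21.6 CPM against 4.84 to 8.87 CPM, and *Gbp2b* from 9.23 to 11.2 CPM against 0.634 to 3.30 CPM.

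By edgeR's quasi-likelihood test and Benjamini-Hochberg adjustment over 9883 genes, 8 of the 8 transcripts other than *Gbp2b* were upregulated by IFN-γ at an adjusted p under 0.05 (9 of 9 with it), against 15.6% of the genes tested upregulated, 16% downregulated and 31.6% changed in either direction. The median log2 fold change was 1.88 over the 8, and the median over the genes tested was −0.03. *Gbp4* rose 11.6-fold (log2 3.54 ± 0.14 SE, edgeR quasi-likelihood test, Benjamini-Hochberg adjusted p = 4.87e-12). *Gbp8* rose 11.6-fold as well (log2 3.53 ± 0.19 SE, edgeR quasi-likelihood test, Benjamini-Hochberg adjusted p = 9.66e-11). The rise was 5.38-fold for *Gbp2*, 4.62-fold for *Gbp5*, 2.94-fold for *Gbp3*, 2.704-fold for *Gbp6* and 2.15-fold for *Gbp7*, and it was 1.66-fold for *Gbp9* (log2 0.73 ± 0.11 SE, edgeR quasi-likelihood test, Benjamini-Hochberg adjusted p = 5.18e-05). The makeup of the family shifted, with *Gbp2* at 37.9% to 42.9% of the summed level and *Gbp7* at 26.9% to 27.9%, in counts not corrected for the ceiling. Per kb, the order with IFN-γ was *Gbp2* (841 CPM per kb), *Gbp7* (256), *Gbp4* (166), *Gbp8* (124), *Gbp3* (116), *Gbp9* (39.1), *Gbp5* (29.2), *Gbp6* (6.84) and *Gbp2b* (3.72), and only *Gbp8* and *Gbp3* overlapped as neighbours. The values of *Gbp2* lay close to the count ceiling. With counts corrected for that ceiling on the assumption of 4096 identifiers, an alternative chosen after seeing the data, the log2 change of *Gbp2* with IFN-γ was 3.61 in place of 2.43 and its mean level was 4138 in place of 2116 CPM. On the same assumption the mean of *Gbp7* was 1711 in place of 1435 CPM with IFN-γ and 635 in place of 669 CPM in unstimulated libraries a to c. The shares above and the fold of *Gbp7* thus also depend on the ceiling. Against the pooled 6 unstimulated libraries of both layouts, the log2 change of *Gbp2* was 1.68. Of the genes tested, 1541 were called higher and 1579 lower, and with library totals in place of TMM these counts were 970 and 2448 and the median of the genes tested moved by −0.18, while the 8 GBPs other than *Gbp2b* were still called higher. *Gbp2b* lost its call against the same pooled libraries (log2 0.92, edgeR quasi-likelihood test, Benjamini-Hochberg adjusted p = 0.279).

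Of the lists of genes that work with GBPs, every tested immunity-related GTPase (6 of the 7 listed) rose with IFN-γ. The other lists rose in part or not at all. Of 6 immunity-related GTPases tested, a related family of interferon-induced GTPases of the vacuole, 6 were upregulated, with a median log2 change of 2.21, among them *Iigp1* (2.61), *Igtp* (2.34) and *Gm12250* (2.33). Of 11 genes from the IFN-γ receptor to transcription, 6 were upregulated and none downregulated (median log2 0.38), with *Irf1* at 2.08 and *Irf8* at 1.88. *Socs1*, a feedback inhibitor of Janus kinases, rose by 1.34 on the log2 scale. Of 11 inflammasome and pyroptosis genes, 7 were upregulated and 1 downregulated (median log2 0.47), with the protease gene *Casp1* at 1.15, *Casp4*, whose product senses lipopolysaccharide in the cytosol, at 0.69, the pore-forming *Gsdmd* at 0.33 and the adaptor gene *Pycard* at −0.70. Of 13 genes of ATG8 conjugation and ubiquitin, which direct GBPs to vacuoles, 6 were upregulated and none downregulated (median log2 0.40), with the ubiquitin ligase gene *Trim21* at 0.89 and *Sqstm1* at 0.74. Of 5 tested genes of prenylation and CaaX processing, and of *Mx1*, *Mx2* and *Gvin1*, other interferon-inducible large GTPases, 0 were called by edgeR, by DESeq2 or at an unadjusted p under 0.05. *Gbp11* was called higher (log2 2.29), with 8 to 13 counts per library against 2 to 4 in unstimulated libraries a to c. At such counts it could pass the filter only through libraries given IFN-γ, so its call is not read as a result of its own. Eosinophil markers, led by *Csf2rb*, stood at 6187, 5596 and 6912 CPM with 1 of 7 tested higher and 4 lower. B cell markers, led by *Ighm*, stood at 100.2, 61.5 and 58.2 CPM with 4 of 5 tested lower. Macrophage markers, led by *Adgre1*, stood at 3440, 3268 and 3658 CPM with 4 of 11 higher and 2 lower. Both tested neutrophil markers were higher, and the 6 on that list summed to 65.5, 57.9 and 70.6 CPM, led by *S100a8* with *Mpo*, *Elane* and *Ltf* at 0. Of 2 tested mast cell markers 1 was higher, and the 5 on that list summed to 30.2, 14.4 and 13.1 CPM, led by *Tpsb2* with *Mcpt4* at 0. The part of these markers in the result was not tested.

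*E. coli* alone did not raise the family, and several members fell below their resting level. The sum of the 9 transcripts was 693, 715 and 968 CPM with *E. coli*, and every library lay below the unstimulated libraries a to c. *Gbp8* stood at 4.08, 7.02 and 2.47 CPM with *E. coli* (10, 21 and 5 counts), against 30.6, 24.1 and 23.5 CPM in unstimulated libraries. *Gbp7* stood at 289, 301 and 315 CPM, against 674, 688 and 644 CPM. For both genes every *E. coli* library was below every unstimulated one, and for *Gbp7* the spread within each group was small. *Gbp9* stood at 46.9, 45.5 and 52.8 CPM, against 104, 105 and 101 CPM, again without overlap. *Gbp2b* was at 0 counts in 3 of 3 *E. coli* libraries, against 2.24, 0.634 and 3.30 CPM. It was at the limit of detection in the unstimulated libraries and passed the filter only through the IFN-γ libraries, so no fold is given. *Gbp2* stood at 220, 228 and 385 CPM, against 395, 351 and 431 CPM. *Gbp4* stood at 42.8, 39.8 and 61.7 CPM, against 59.2, 64.6 and 69.8 CPM. In both genes *E. coli* library 3 was the highest of its group and reached into the unstimulated range. *Gbp5* ranged from 14.7 to 31.1 CPM, *Gbp3* from 71.6 to 116 CPM and *Gbp6* from 1.22 to 5.02 CPM with *E. coli*, each overlapping the unstimulated libraries.

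With edgeR's quasi-likelihood test and Benjamini-Hochberg adjustment, 6 of the 9 transcripts were downregulated by *E. coli* (5 of the other 8 without *Gbp2b*), against 16.7% of the 9883 genes tested downregulated, 13.5% upregulated and 30.2% changed in either direction. None of the 9 was upregulated by edgeR or by DESeq2, and none was higher at an unadjusted p under 0.05. The libraries of 4 of the 9 lay wholly below the unstimulated ones (3 of the other 8 without *Gbp2b*), as did those of 23.5% of the genes tested. The median log2 change was −0.90 as fitted and −0.70 without *Gbp2b*, whereas the median over the genes tested was −0.02. *Gbp8* fell 5.44-fold (log2 −2.44 ± 0.30 SE, edgeR quasi-likelihood test, Benjamini-Hochberg adjusted p = 5.92e-06). *Gbp7* fell 2.22-fold (log2 −1.15 ± 0.15 SE, edgeR quasi-likelihood test, Benjamini-Hochberg adjusted p = 1.02e-05). *Gbp9* fell 2.14-fold (log2 −1.10 ± 0.12 SE, edgeR quasi-likelihood test, Benjamini-Hochberg adjusted p = 1.25e-06). The smaller falls of *Gbp2* (1.42-fold, log2 −0.51) and *Gbp4* (1.36-fold, log2 −0.44) had edgeR quasi-likelihood, Benjamini-Hochberg adjusted p values of 0.0347 and 0.0342. Both calls were lost when any of several single libraries was left out. In those fits the log2 change was −0.50 to −0.36 for *Gbp2* and −0.42 to −0.30 for *Gbp4*. *Gbp2* missed the threshold without unstimulated library a (adjusted p = 0.0828 by the same edgeR test) or c (0.123) and without *E. coli* library 1 (0.188) or 2 (0.174). *Gbp4* missed it without unstimulated library b (adjusted p = 0.0693 by the same edgeR test) or c (0.127), without *E. coli* library 1 (0.149) or 2 (0.204), and with no filter on low counts (0.0610). Against the pooled 6 unstimulated libraries *Gbp2* was at log2 −1.27. In a fit of the compared groups alone the 2 adjusted p values by edgeR were 0.05004 and 0.0636. *Gbp3*, at log2 −0.28, was called only without *E. coli* library 3 (log2 −0.52, edgeR adjusted p = 0.0234), and *Gbp9* lost its call only against the pooled 6 unstimulated libraries (log2 −0.58, edgeR adjusted p = 0.152), among the alternatives run. Of the genes tested, 1337 were called higher and 1649 lower.

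Per kb, the order with *E. coli* began with *Gbp2* (110.3 CPM per kb), *Gbp7* (53.7) and *Gbp3* (32.5), followed by *Gbp9* (11.05), *Gbp4* (10.6) and *Gbp5* (6.86), where *Gbp4* overlapped both its neighbours. *Gbp8* (1.84) and *Gbp6* (1.30) came next and overlapped. Of 6 immunity-related GTPases tested, 3 were downregulated by *E. coli* and none upregulated (median log2 −0.74), namely *Irgm1* (−0.74), *Irgm2* (−0.74) and *Iigp1* (−0.76). Among the 11 genes from the IFN-γ receptor to transcription, 4 were downregulated and 3 upregulated (median log2 −0.03), with *Stat2* at −0.95, *Irf1* at −0.76 and *Socs1* at 0.77. *Mx1* (−1.65) and *Mx2* (−0.76) fell, while *Gvin1* was not called. Of 11 inflammasome genes, the cytokine gene *Il1b* (3.32) and the sensor gene *Nlrp3* (1.81) were upregulated and *Casp1* (−0.34) and *Gsdmd* (−0.36) downregulated. Of 13 ATG8 and ubiquitin genes, *Sqstm1* (0.37) was upregulated and *Gabarapl1* (−0.56), *Map1lc3b* (−0.50) and *Trim21* (−0.40) were downregulated. Over the genes tested, 30.2% changed in either direction, so the counts of these 2 lists are not read as a result about them. Of 5 prenylation genes tested, 0 were called by edgeR, by DESeq2 or at an unadjusted p under 0.05. Eosinophil markers, led by *Csf2rb*, stood at 5179.7, 4483 and 5500.3 CPM with 1 of 7 tested higher and 2 lower. B cell markers, led by *Ighm*, were lower in 5 of 5 tested and stood at 40.8, 44.5 and 76.5 CPM. Macrophage markers, led by *Adgre1*, were lower in 3 of 11 and stood at 2128, 1932 and 2841 CPM. Of 2 tested neutrophil markers 1 was higher, and the 6 on that list, with *S100a8* the most abundant and *Elane* at 0, summed to 59.6, 45.1 and 127 CPM. Their part in the result was not tested.

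When *E. coli* was given together with IFN-γ, most of the family again stood above its resting level. The sum of the 9 transcripts was 5603, 4875 and 4717 CPM. *Gbp2*, the largest part of that sum, lay near the count ceiling in these libraries (3289, 3638 and 3461 counts) as it did with IFN-γ. With counts corrected for it, on the same assumption, the sum was 6947.5, 6715 and 6050.4 CPM with both and 7197, 6958 and 7692 CPM with IFN-γ. *Gbp4* stood at 759, 745 and 675 CPM, *Gbp2* at 2402, 1993 and 2282 CPM, and both lay far above the unstimulated libraries. *Gbp7* stood at 1655, 1383 and 953 CPM, with library 3 the lowest but still above the 644 to 688 CPM of unstimulated libraries. *Gbp8* stood at 246, 217 and 159.6 CPM, and *Gbp9* at 167, 139 and 154 CPM. Both were above every unstimulated library. *Gbp2b* was at 0, 0.548 and 2.64 CPM, against 0.634 to 3.30 CPM in unstimulated libraries, values near the limit of detection in both groups. *Gbp3* ranged from 269 to 350.2 CPM, *Gbp5* from 77.4 to 113 CPM and *Gbp6* from 19.0 to 27.0 CPM, above the unstimulated libraries in each case. The libraries of 8 of the 9 lay wholly above the unstimulated ones, against 25.7% of the genes tested. By edgeR's quasi-likelihood test and Benjamini-Hochberg adjustment, 8 of the 9 transcripts were upregulated by IFN-γ + *E. coli*, against 23.9% of the genes tested upregulated, 25.2% downregulated and 49% changed in either direction. Their median log2 change was 1.79 (2.08 without *Gbp2b*), against −0.04 over the genes tested. *Gbp4* rose 11.2-fold, *Gbp8* 7.86-fold, *Gbp2* 5.66-fold, *Gbp5* 5.13-fold, *Gbp6* 3.46-fold, *Gbp3* 2.83-fold, *Gbp7* 1.99-fold and *Gbp9* 1.48-fold. The log2 change of *Gbp2* was 2.50, and it was 3.49 with counts corrected for the ceiling and 1.78 against the pooled 6 unstimulated libraries. The adjusted p of *Gbp2b* was 0.298 by the same edgeR test (log2 −1.02), it was 0.0573 without IFN-γ + *E. coli* library 3 (log2 −2.60), and against the pooled 6 unstimulated libraries it was called lower (log2 −2.31, edgeR adjusted p = 0.0486). Of the genes tested, 2358 were called higher and 2486 lower, and with library totals these counts were 1536 and 3676, with a shift of the median by −0.25 and 8 GBPs still called higher.

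Per kb, the order with IFN-γ + *E. coli* was *Gbp2* (885 CPM per kb), *Gbp7* (237), *Gbp4* (159.99), *Gbp3* (111), *Gbp8* (84.4), *Gbp9* (35.1), *Gbp5* (32.4), *Gbp6* (8.70) and *Gbp2b* (0.376), and only *Gbp9* and *Gbp5* overlapped as neighbours. The 6 immunity-related GTPases tested were upregulated in 6 cases (median log2 2.18), and the genes from receptor to transcription in 7 of 11 with 1 lower (median log2 0.48). The gene that fell was *Ifngr1* (−0.56), which encodes the ligand-binding chain of the IFN-γ receptor. Inflammasome and pyroptosis genes were upregulated in 6 of 11 and downregulated in 1 (median log2 0.55), led by *Il1b* (4.45) and *Nlrp3* (2.98), while ATG8 and ubiquitin genes were upregulated in 8 of 13 (median log2 0.56), led by *Sqstm1* (1.38) and *Traf6* (1.00). Of 5 prenylation genes and of *Mx1*, *Mx2* and *Gvin1*, 0 were called by edgeR or DESeq2, and at an unadjusted p under 0.05 there was 1 prenylation gene higher and 1 of the large GTPases lower. *Gbp11* was called higher (log2 1.91), with 4 to 10 counts per library against 2 to 4 in unstimulated libraries a to c. It could pass the filter only through libraries given IFN-γ, so this call is not read as a result of its own either. Eosinophil markers, led by *Csf2rb*, stood at 6156, 5092 and 5678 CPM with 2 of 7 tested higher and 4 lower, and macrophage markers, led by *Adgre1*, at 2944, 3020.0 and 3729 CPM with 2 of 11 higher and 2 lower. Both tested mast cell markers were higher, with the summed level of the 5 at 35.8, 70.1 and 66.6 CPM, led by *Cma1* with *Mcpt4* at 0, as were both tested neutrophil markers, at 48.9, 66.3 and 100.2 CPM for the 6, led by *S100a8* with *Ltf* at 0. Their part in the result was not tested.

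IFN-γ + *E. coli* was also set against IFN-γ. *Gbp2b* had 20, 18 and 17 counts in the IFN-γ libraries and 0, 1 and 4 counts in the IFN-γ + *E. coli* libraries. *Gbp8* stood at 261, 354 and 301 CPM with IFN-γ and at 246, 217 and 159.6 CPM with both. For these 2 genes every library with both stimuli was below every IFN-γ library, against 14.3% of the genes tested, and the other 7 overlapped. By edgeR's quasi-likelihood test and Benjamini-Hochberg adjustment, 2 of the 9 transcripts were lower with both than with IFN-γ (1 of 8 without *Gbp2b*), against 5.98% of the genes tested lower, 6.25% higher and 12.2% changed in either direction. The median log2 difference of the 9 was −0.05, against 0.01 over the genes tested. *Gbp2b* passed the filter on low counts only through the IFN-γ libraries, so its call is not read as a result of its own. *Gbp8* was 1.47-fold lower (log2 −0.56 ± 0.16 SE, edgeR quasi-likelihood test, Benjamini-Hochberg adjusted p = 0.0285). That call was lost without IFN-γ library 2 (adjusted p = 0.131 by the same edgeR test) or 3 (0.0562) and without IFN-γ + *E. coli* library 2 (0.0655) or 3 (0.0771). In those fits the log2 difference was −0.45, −0.57, −0.60 and −0.41 in that order. Of the genes tested, 618 were called higher and 591 lower, and with library totals 443 and 815, with the same number of GBPs lower. Leaving out IFN-γ library 1 or IFN-γ + *E. coli* library 2 lowered the number of genes called from 1209 to 740 and 773. Of 6 immunity-related GTPases, 11 genes from receptor to transcription, 5 prenylation genes and 3 other large GTPases, edgeR called 0 in this comparison. DESeq2 called 1 of the genes from receptor to transcription, and at an unadjusted p under 0.05 these lists held 1, 3, 0 and 1 genes in that order. *Casp4* (0.52), *Nlrp3* (1.69) and *Il1b* (3.43) were higher with both, as was *Sqstm1* (0.64) alone among the 13 ATG8 and ubiquitin genes. B cell markers, led by *Ighm*, were higher in 3 of 5 tested, with a summed level of 121, 134 and 127.9 CPM, and 1 of 2 tested mast cell markers was higher. DESeq2 called 0 of the 5 B cell markers and 1 of the 2 mast cell markers. Of the eosinophil markers 1 of 7 tested was higher and 3 were lower. What part these markers had in the result was not tested.

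IFN-γ was tested in the presence of *E. coli*. Set against the *E. coli* libraries, 8 of the 8 transcripts other than *Gbp2b* were higher with IFN-γ + *E. coli* by edgeR's quasi-likelihood test and Benjamini-Hochberg adjustment (9 of 9 with it), against 17.5% of the genes tested higher, 15.3% lower and 32.8% changed in either direction. The median log2 difference was 2.48 over the 8, against −0.02 over the genes tested. *Gbp8* stood 42.8-fold higher, *Gbp4* 15.3-fold, *Gbp2* 8.05-fold, *Gbp6* 6.45-fold, *Gbp5* 4.86-fold, *Gbp7* 4.41-fold, *Gbp3* 3.45-fold and *Gbp9* 3.18-fold, with no overlap of libraries for these 8, against 21.6% of the genes tested with no overlap in that direction. The fold of *Gbp8* rests on 5 to 21 counts per *E. coli* library. With counts corrected for the ceiling, the log2 difference of *Gbp2* was 4.05 in place of 3.01. *Gbp2b* had 0 counts in 3 *E. coli* libraries and at most 4 with both, so no fold is given. Its adjusted p of 0.0423 by edgeR passed 0.05 narrowly, and the call was lost with library totals (0.0505) and without *E. coli* library 1 (0.0865), 2 (0.101) or 3 (0.0691) or IFN-γ + *E. coli* library 3 (0.273). Calls over the genes tested were 1725 higher and 1515 lower, and 1097 and 2859 with library totals, where the median moved by −0.23. B cell markers were higher with IFN-γ + *E. coli* than with *E. coli* in 5 of 5 tested, mast cell markers in 2 of 2, neutrophil markers in 1 of 2 and macrophage markers in 5 of 11 with 1 lower. Of 7 eosinophil markers tested, 1 was higher and 3 were lower. Their part in the result was not tested.

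IFN-γ was then set directly against *E. coli*, since both responses share the same unstimulated libraries. By edgeR's quasi-likelihood test and Benjamini-Hochberg adjustment, 8 of the 8 transcripts other than *Gbp2b* were higher with IFN-γ than with *E. coli* (9 of 9 with it), against 14.1% of the genes tested higher, 11.5% lower and 25.5% changed in either direction. The median log2 difference was 2.29 over the 8, against −0.02 over the genes tested. *Gbp8* was 63.1-fold higher (log2 5.98 ± 0.24 SE, edgeR quasi-likelihood test, Benjamini-Hochberg adjusted p = 1.94e-12), a fold that rests on 5 to 21 counts per *E. coli* library. The other 7 ranged from 3.55-fold for *Gbp9* to 15.8-fold for *Gbp4*, and no IFN-γ library overlapped an *E. coli* library for any of the 8, against 21.5% of the genes tested with every IFN-γ library the higher. With counts corrected for the ceiling, the log2 difference of *Gbp2* was 4.17 in place of 2.94. Calls over the genes tested were 1393 higher and 1132 lower, and 1062 and 1937 with library totals, where the median moved by −0.15. Macrophage markers were higher in 6 of 11 with IFN-γ than with *E. coli*, B cell markers in 1 of 5 and neutrophil markers in 1 of 2. Of 7 eosinophil markers tested, 1 was higher and 2 were lower. Their part in the result was not tested.

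The effect of *E. coli* on some GBPs depended on whether IFN-γ was present. For *Gbp7* the log2 effect of *E. coli* was −1.15 without IFN-γ and −0.11 with it. For *Gbp8* it was −2.44 without and −0.56 with IFN-γ, and for *Gbp9* it was −1.10 without and −0.16 with IFN-γ. The difference between these effects was tested as an interaction by edgeR's quasi-likelihood test and Benjamini-Hochberg adjustment. It was positive for 3 of the 9 transcripts, against 2.58% of the genes tested positive, 2.04% negative and 4.62% in either direction, and 5 of the 9 were positive at an unadjusted p under 0.05, against 9.18% of the genes tested. The median over the 9 was 0.94 (0.76 without *Gbp2b*), against 0.00425 over the genes tested. The interaction was 1.89 ± 0.35 SE for *Gbp8* (edgeR quasi-likelihood test, Benjamini-Hochberg adjusted p = 0.00355), 1.04 ± 0.21 SE for *Gbp7* (0.00626) and 0.94 ± 0.16 SE for *Gbp9* (0.00206), on the log2 scale. The value of *Gbp8* rests on 5 to 21 counts per *E. coli* library. *Gbp2* was at 0.58 (edgeR adjusted p = 0.218) and passed the threshold only without *E. coli* library 3 (0.87, edgeR adjusted p = 0.00805), among the alternatives run. Of the genes tested, 255 were positive and 202 negative. With library totals these counts were 226 and 266, and 3 of the 9 GBPs were positive. The total of 457 fell to 266 without unstimulated library a, to 286 and 270 without *E. coli* library 1 and 2, and to 294 without IFN-γ + *E. coli* library 2. Of 11 genes from receptor to transcription, 3 were positive and 1 negative, with *Stat2* at 1.05, *Irf1* at 0.71 and *Socs1* at −0.81. *Irgm1* (0.74) of 6 immunity-related GTPases, *Casp4* (0.85) of 11 inflammasome genes and *Mx1* (1.12) of 3 other large GTPases were positive, and of the 13 ATG8 and ubiquitin and 5 prenylation genes 0 were called by edgeR or DESeq2, with 2 and 0 at an unadjusted p under 0.05. B cell markers were positive in 5 of 5 tested, with a median of 2.68, macrophage markers in 1 of 11, and 1 of 2 tested neutrophil markers was negative. The median of the macrophage markers was 0.65, and 6 of the 11 were positive at an unadjusted p under 0.05 in edgeR. DESeq2 called 2 of them positive. Their part in the result was not tested.

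IL-4, a cytokine of Type 2 responses that signals through STAT6, raised part of the family. *Gbp7* stood at 1439, 1369 and 1542 CPM with IL-4 and at 730.1, 348 and 539 CPM in unstimulated libraries d, e and f. *Gbp8* stood at 28.7, 36.7 and 26.4 CPM with IL-4 and at 6.39, 12.9 and 12.8 CPM without a stimulus. For both genes every IL-4 library was above every unstimulated one, and library e held the lowest *Gbp7* level. *Gbp4* stood at 137, 135 and 113 CPM with IL-4 and at 65.5, 61.0 and 85.1 CPM without a stimulus. *Gbp9* stood at 58.8, 64.8 and 68.4 CPM with IL-4 and at 32.2, 34.1 and 35.1 CPM without a stimulus. *Gbp2* stood at 930.0, 915 and 987 CPM with IL-4 and at 733, 537 and 903 CPM without a stimulus. The groups did not overlap for these genes, although for *Gbp2* library f came close to the IL-4 libraries. *Gbp2b*, well detected in this layout, stood at 11.6, 15.5 and 9.07 CPM with IL-4 and at 6.39, 5.47 and 7.93 CPM without a stimulus. *Gbp5* ranged from 30.6 to 39.9 CPM with IL-4 against 6.29 to 34.4 CPM, *Gbp3* from 141 to 172 CPM against 100.9 to 160.4 CPM, and *Gbp6* from 1.66 to 3.99 CPM against 1.66 to 3.40 CPM, and these 3 overlapped. The summed level of the family was 2803, 2719 and 2952 CPM with IL-4 against 1735, 1108 and 1782 CPM in libraries d, e and f, and *Gbp7* gave 50.4% to 52.2% of it with IL-4.

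In edgeR's quasi-likelihood test with adjustment by Benjamini-Hochberg over 10556 genes, 4 of the 9 transcripts were upregulated by IL-4, against 5.97% of the genes tested upregulated, 4.35% downregulated and 10.3% changed in either direction. At an unadjusted p under 0.05, 6 of the 9 were higher, against 13.2% of the genes tested. The libraries of 6 of the 9 lay wholly above the unstimulated ones, against 16.2% of the genes tested. The median log2 change was 0.86, against 5.74e-04 over the genes tested. *Gbp8* rose 2.80-fold (log2 1.49 ± 0.26 SE, edgeR quasi-likelihood test, Benjamini-Hochberg adjusted p = 0.00496) and *Gbp7* 2.69-fold (log2 1.43 ± 0.22 SE, adjusted p = 0.00277). *Gbp9* rose 1.89-fold (log2 0.92 ± 0.14 SE, edgeR quasi-likelihood test, Benjamini-Hochberg adjusted p = 0.00276) and *Gbp4* 1.82-fold (log2 0.86 ± 0.16 SE, adjusted p = 0.0066). *Gbp2* (log2 0.38, adjusted p = 0.188) and *Gbp2b* (log2 0.88, adjusted p = 0.0776) did not pass by the same edgeR test. Without library e, 4 of the 9 were again upregulated, against 7.45% of 10893 genes upregulated and 12.8% in either direction, and the median log2 change was 0.75. The log2 changes were then 1.62 for *Gbp8*, 1.19 for *Gbp7*, 0.92 for *Gbp9* and 0.76 for *Gbp4*, with edgeR adjusted p values of 8.05e-04, 1.27e-05, 6.58e-04 and 0.00192. *Gbp2* (log2 0.20, edgeR adjusted p = 0.236) and *Gbp2b* (log2 0.75, edgeR adjusted p = 0.121) again did not pass, and 5 of the 9 were higher at an unadjusted p under 0.05. The share of all genes at that threshold without library e is not given here, so this count is not read as a result. *Gbp9* lost its call against the pooled 6 unstimulated libraries (log2 0.23, edgeR adjusted p = 0.596), whose level of *Gbp9* differed between layouts. *Gbp5*, at log2 0.85, was called only with no filter on low counts (log2 0.83, edgeR adjusted p = 0.00198), among the alternatives run, and without library f it was at log2 1.52 (edgeR adjusted p = 0.0569). Of the genes tested, 630 were called higher and 459 lower with library e, and 812 and 582 without it. The total of 1089 fell to 483, 495 and 515 when IL-4 library 1, 2 or 3 was left out.

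Per kb, the order with IL-4 was *Gbp2* (375 CPM per kb), *Gbp7* (258), *Gbp3* (58.4), *Gbp4* (28.3), *Gbp9* (14.6), *Gbp8* (12.5), *Gbp5* (11.9), *Gbp2b* (4.27) and *Gbp6* (1.16), and *Gbp8* overlapped both its neighbours. Of 11 genes from the IFN-γ receptor to transcription, 6 were upregulated by IL-4 (median log2 0.56), with *Socs1* at 1.52 and *Irf1* at 0.97, and without library e the count was again 6, with 1 lower. Of 5 immunity-related GTPases tested, 3 were upregulated (median log2 0.82, and 0.73 with the same count without library e), namely *Irgm1* (1.00), *Irgm2* (0.79) and *Igtp* (0.82). Of 11 inflammasome and pyroptosis genes, 4 were upregulated and 1 downregulated with or without library e, with *Pycard* at 0.89, *Il1b* at 0.87, *Casp4* at 0.78 and *Ninj1*, whose product ruptures the plasma membrane, at −0.80. ATG8 and ubiquitin genes were upregulated in 1 of 13 and downregulated in 4 with or without library e, with *Trim21* at 0.70, *Gabarapl1* at −0.79 and *Sqstm1* at −0.78. Among the prenylation genes, *Rce1*, which encodes a CaaX protease, was at −0.93 and was the 1 of 6 called lower, and without library e 1 was lower and 1 higher. Of *Mx1* and *Mx2*, 0 were called by edgeR, by DESeq2 or at an unadjusted p under 0.05. Without library e edgeR again called 0, and *Mx1* was higher at an unadjusted p under 0.05. Macrophage markers were lower in 4 of 11, with a summed level of 3327, 3265 and 3792 CPM, led by *Lyz2*, and B cell markers were higher in 3 of 4 tested, with a summed level of 64.3, 58.7 and 71.8 CPM, led by *Ighm*. These counts were the same without library e. Of 2 tested mast cell markers 0 were called, and 2 were higher at an unadjusted p under 0.05 in edgeR. Without library e 0 of 3 tested were called, and 2 were higher at that threshold. The 5 mast cell markers summed to 17.3, 7.81 and 20.5 CPM with IL-4 and to 8.33, 6.46 and 7.17 CPM in libraries d to f. Of 2 tested dendritic cell markers 1 was higher, and 0 were without library e. The 4 on that list, led by *Xcr1* with *Siglech* at 0, summed to 7.23, 12.6 and 16.1 CPM with IL-4 and to 5.28, 4.14 and 7.36 CPM in libraries d to f. Eosinophil markers, led by *Alox15*, stood at 6985, 7261 and 6917 CPM with 4 of 10 higher and 1 lower, with or without library e. The part of these markers in the result was not tested.

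**Figure D3:**
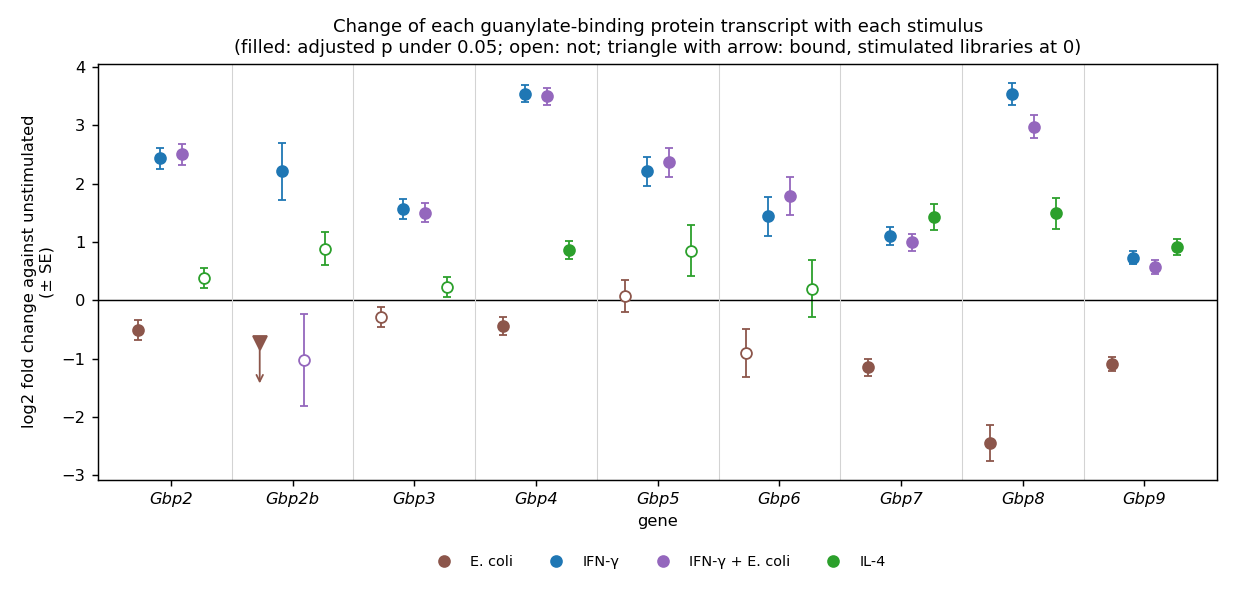
Log2 fold change of each of the 9 transcripts with each stimulus against the unstimulated libraries of its own layout, with points for the fitted value, bars for ± 1 SE and filled points for an adjusted p under 0.05 in edgeR's test (n = 3 libraries per group). *Gbp4* and *Gbp8* show the largest rise with IFN-γ (log2 3.54 and 3.53), while *Gbp7*, *Gbp8* and *Gbp9* are lower with *E. coli* and higher with the other 3 stimuli, under each scaling tried.

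The responses to IL-4 and IFN-γ were measured against different unstimulated libraries, and their difference was tested in a fit of all 18. By edgeR's quasi-likelihood test and Benjamini-Hochberg adjustment over 10671 genes, 4 of the 9 transcripts responded less to IL-4 than to IFN-γ, against 14.7% of the genes tested lower, 13% higher and 27.8% in either direction. The median log2 difference was −1.37 for the 9 and 0.02 for the genes tested. It was −2.71 ± 0.21 SE for *Gbp4* (edgeR quasi-likelihood test, Benjamini-Hochberg adjusted p = 5.46e-09), −2.09 ± 0.33 SE for *Gbp8* (5.92e-05), −2.08 ± 0.26 SE for *Gbp2* (3.81e-06) and −1.36 ± 0.26 SE for *Gbp3* (3.81e-04). *Gbp7* (log2 0.29 ± 0.27 SE, adjusted p = 0.456) and *Gbp9* (log2 0.15 ± 0.16 SE, adjusted p = 0.525) did not pass by the same edgeR test, which does not show that the responses were alike. *Gbp5* lay at the threshold (log2 −1.39, edgeR adjusted p = 0.0502). It passed without library e (log2 −1.86, edgeR adjusted p = 3.15e-04), without unstimulated library c (0.0480), with DESeq2's size factors (0.0457), with counts corrected for the ceiling (0.0472) and with no filter (1.47e-05). Without library f it was at log2 −0.70 (edgeR adjusted p = 0.289). Without library e the count of lower responses was thus 5 of the 9, against 13.2% of 10927 genes lower and 25.6% in either direction, and the median was −1.56. *Gbp9* passed only with library totals (log2 0.42, edgeR adjusted p = 0.0446), among the alternatives run, where the median of the genes tested moved by 0.27 and the calls were 2252 higher and 916 lower in place of 1392 and 1572. With counts corrected for the ceiling, the difference was −3.24 for *Gbp2* and −0.014 for *Gbp7*. Among the immunity-related GTPases, 4 of 6 tested responded less to IL-4, with *Iigp1* at −2.38 and *Igtp* at −1.56. B cell markers responded more to IL-4 in 4 of 5 tested, macrophage markers more in 2 of 11 and less in 5, neutrophil markers less in 2 of 3, and eosinophil markers more in 4 of 9 and less in 2. The part of these markers in the result was not tested. The layouts differed in depth and in the count ceiling, and these differences cannot be told apart from the stimulus in this comparison.

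Across the 12 libraries of the first layout the 9 transcripts varied together. Pearson's r of log2 CPM between 2 members ranged from 0.489 to 0.993 over 36 pairs, with a median of 0.891. These values are a description, since the libraries fall into 4 groups that share stimuli. Among the 10 other genes with levels most like the mean of the 9 were *Il18bp* (r = 0.993), *Scpep1* (0.992), *Serpinb1a* (0.990), *Irf1* (0.989), *Serpinb9* (0.987), *Irgm2* (0.986), *Whamm* (0.985), *Iigp1* (0.984) and *Tap2* (0.984), over the same 12 libraries. *Il18bp*, which encodes a secreted inhibitor of IL-18, stood at a mean of 66.8 CPM in unstimulated libraries, 37.2 CPM with *E. coli*, 359 CPM with IFN-γ and 312 CPM with both. *Serpinb9*, which encodes an inhibitor of granzyme B, stood at 38.2, 13.7, 182 and 126 CPM in the same order. Both had their lowest mean with *E. coli* and their highest with IFN-γ. They were chosen for their likeness to the members over these same libraries, which favours such a pattern.

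Promoter sequence was examined because the members moved together with IFN-γ. RefSeq windows of GRCm38.p6, from 250 bases before to 50 after the start of transcription, were found for 5 members, *Gbp2*, *Gbp2b*, *Gbp3*, *Gbp5* and *Gbp7*, each on the plus strand of chromosome 3. The other members were *Gbp4*, *Gbp6*, *Gbp8* and *Gbp9*. The windows were searched on both strands for the gamma-activated sequence (GAS), TTCNNNGAA, and for the core of the interferon-stimulated response element (ISRE), a pair of GAAA motifs spaced by 2 bases. Over 32851 RefSeq windows of that length, 8.30% held a GAS motif, 3.44% an ISRE core and 0.454% both. *Gbp5* and *Gbp7* held both, with 2 GAS motifs each. In *Gbp5* the GAS motifs began 245 and 52 bases before the start and the ISRE core 165 bases before it, and in *Gbp7* the GAS motifs began 106 and 87 bases before the start and the ISRE core 53 bases before it. *Gbp2b* and *Gbp2* held 1 ISRE core each, beginning 137 and 59 bases before the start, and *Gbp3* held 2 that overlapped, at 45 and 39 bases in 1 of its 2 windows. The match of *Gbp2* lies inside an annotated exon of that gene, at 142620602 to 142620808, which begins before the RefSeq start. A match is a description of these letters and not a measured site. The bases before the start are given for *Gbp5* and *Gbp7*, which held both motifs, and for *Gbp2b*, which held 1 ISRE core and whose transcript was the lowest of the 9 per kb in unstimulated libraries a to c, up to the start or to an annotated exon before it, with the motifs in capitals. They span chr3:142496684-142496899 for *Gbp5*, chr3:142530086-142530335 for *Gbp7* and chr3:142594597-142594846 for *Gbp2b*, on the plus strand, read 5′ to 3′. The stretch of *Gbp5* lies within the annotated gene, between an exon that ends at 142494125 and one that begins at 142496900.
Gbp5: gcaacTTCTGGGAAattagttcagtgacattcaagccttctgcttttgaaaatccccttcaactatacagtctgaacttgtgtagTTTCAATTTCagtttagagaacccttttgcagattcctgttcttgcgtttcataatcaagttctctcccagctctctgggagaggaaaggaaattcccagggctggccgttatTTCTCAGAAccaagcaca
Gbp7: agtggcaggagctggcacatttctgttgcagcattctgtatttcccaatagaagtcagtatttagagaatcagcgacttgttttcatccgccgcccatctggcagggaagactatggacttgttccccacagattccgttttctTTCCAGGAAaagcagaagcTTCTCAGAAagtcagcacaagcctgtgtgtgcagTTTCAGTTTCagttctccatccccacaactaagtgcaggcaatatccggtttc
Gbp2b: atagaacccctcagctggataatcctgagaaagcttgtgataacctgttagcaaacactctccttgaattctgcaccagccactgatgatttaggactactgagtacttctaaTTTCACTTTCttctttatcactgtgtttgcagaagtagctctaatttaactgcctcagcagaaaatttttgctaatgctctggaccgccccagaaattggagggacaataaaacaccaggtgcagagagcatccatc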

How the data were processed

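The authors deposited whole-number counts of reads per Ensembl gene for 18 libraries. Their methods describe CEL-Seq2 libraries aligned with TopHat2 to GRCm38 and counted with HTSeq, and RNA-seq reads trimmed with fastp and aligned with STAR. The processing notes name HTSeq 0.6.1, STAR 2.7.2a, TopHat2 2.1.0 and fastp 0.20.1. Whether molecular identifiers were collapsed was not given in the sources used here. Summary lines that name no gene stayed out of all totals, and in the 12 libraries that hold them, reads on no feature stood for 18.9% to 37.6% of counts.

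Counts were normalized by TMM, filtered with filterByExpr and tested with glmQLFTest in edgeR 4.0.16 (R 4.3.3), with Benjamini-Hochberg adjustment over 9883, 10556 or 10671 genes and a threshold of 0.05. The 12 libraries of the first layout, the 6 of the second and the 18 together were each fitted without covariates. The steps were tested on simulated counts. Names and positions came from GENCODE M21, which matched 98.3% and 99.7% of identifiers, and levels were divided by transcript length. Python 3.11.15 with pandas 2.3.3 and matplotlib 3.10.9 was used for the rest.

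Alternatives were DESeq2 1.42.0, its size factors in edgeR, library totals, no filter, a prior count of 2, a factor of 2, the compared groups alone, the 6 unstimulated libraries pooled, a replicate block, each library left out, and counts corrected for the ceiling of 4096. The members and gene lists were chosen with earlier results of these data known. All 9 members were named, with the genes of largest change in each list and the 10 genes most like the members by Pearson's r. Other list genes were named after their values were seen. The values of 1 gene of these lists are not reported here.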

Additional observations from a re-analysis of the deposited data

Results flagged for a closer look

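The effect of *E. coli* differed with the presence of IFN-γ for 3 transcripts, by edgeR's test of the interaction. The effect with IFN-γ minus the effect without it was 1.89 for *Gbp8*, 1.04 for *Gbp7* and 0.94 for *Gbp9*, on the log2 scale.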

How the results depend on the processing

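Of 1274 comparisons of a member's result with an alternative, 1214 kept direction and side of the threshold, 32 lost the call, 10 gained it and 18 turned direction. Of 81 results 54 were called, 42 of these under every alternative run, and 0 of the 54 turned direction. These counts include the results of *Gbp2b*. DESeq2 gave no adjusted p for *Gbp2b* in the interaction. Where no cause is given, the cause was not tested.

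Requiring a change by a factor of 2 lowered the genes called to 1023 with *E. coli*, 1187 with IFN-γ, 2210 with IFN-γ + *E. coli*, 404 for both against IFN-γ, 1325 for both against *E. coli*, 1027 for IFN-γ against *E. coli*, 245 for the interaction, 478 with IL-4 and 1789 for IL-4 minus IFN-γ, since the rule removes smaller changes. These gene totals were out of 9883 genes tested in the first layout, 10556 with IL-4 and 10671 for IL-4 minus IFN-γ. Under the rule the members called went from 6 to 4 with *E. coli* (*Gbp2* and *Gbp4* lost), 9 to 8 with IFN-γ (*Gbp9*), 8 to 6 with IFN-γ + *E. coli* (*Gbp7* and *Gbp9*), 2 to 1 in both against IFN-γ (*Gbp8* lost and *Gbp2b* left), 3 to 2 in the interaction (*Gbp9*) and 4 to 2 with IL-4 (*Gbp4* and *Gbp9*). In the first layout these counts include *Gbp2b* wherever it was called, although it passed the filter there only through the IFN-γ libraries. With the compared groups alone, *Gbp2* and *Gbp4* lost their calls with *E. coli* and *Gbp2b* was not tested, while *Gbp7*, *Gbp8* and *Gbp9* stayed lower (3 of 8 tested). The share of all genes lower in that fit is not given here, so this count is not read as a result. With the 6 unstimulated libraries pooled, 1 member (*Gbp2b*) was lower with both stimuli, and 1662 genes were called with IL-4, against 1634 with no filter. With library totals 1 member responded more to IL-4 than to IFN-γ.

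Leaving out 1 library gave 1 to 2 members, *Gbp2b* always among them, and 740 to 1122 genes for both against IFN-γ, 266 to 562 genes for the interaction and 483 to 1394 genes for IL-4. Values that turned direction belonged to results not called. *Gbp5* with *E. coli* was −0.13 against the pooled libraries and ranged from −0.27 to 0.29 with 1 library left out. For both against IFN-γ, *Gbp2* was −0.0036 with library totals, −0.12 with the ceiling corrected (chosen after seeing the data) and −0.013 to 0.17 with 1 library left out, *Gbp3* −0.20 to 0.015 and *Gbp7* −0.30 to 0.070. In the interaction, *Gbp2b* was −0.79 with a prior count of 2 and *Gbp5* −0.14 to 0.42 with 1 library left out. With IL-4, *Gbp6* was −0.29 against the pooled libraries and −0.074 to 0.50 with 1 left out. *Gbp7* was −0.014 for IL-4 minus IFN-γ with the ceiling corrected.

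Whether the replicate numbers pair the libraries was not settled. Deviations of same-numbered libraries had a mean r of 0.052, 0.11 and 0.17 for *E. coli* with IFN-γ, *E. coli* with both and IFN-γ with both. The r was over 0.1 in 1, 1 and 2 of 3 pairs, and 2, 4 and 3 of 6 libraries correlated best with their own number. With the number as a block and 9456 genes tested, 1430 genes and 2 members were called for both against IFN-γ, 3447 genes and 9 members for both against *E. coli*, and 2750 genes and 9 members for IFN-γ against *E. coli*. Each of these member counts includes *Gbp2b*, which passed the filter in this layout only through the IFN-γ libraries, so its part is not read as a result. Low counts limited *Gbp2b*, *Gbp6* and *Gbp11* in the first layout, and *Gbp8* in its *E. coli* libraries (5 to 21 counts).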
